A study of Mus musculus with 3 samples.

Results

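Interferon-stimulated follicular T cells are the cells that the authors' clustering set apart as subcluster 7 of the follicular helper T cells (Tfh) and subcluster 5 of the follicular regulatory T cells (Tfr). They were taken by these cluster numbers from the deposited tables of cells and matched by barcode to the deposited counts. They make up 237 of the 13625 distinct cells, 166 from the knockout and 71 from the wild type. Mouse spleen cells were sorted 14 days after immunisation with liposomes that carry ovalbumin, as Siglec-G B-cell knockout (BKO, labelled batch 1), wild type replicate 1 (WT run 1, batch 1) and wild type replicate 2 (WT run 2, batch 2), and the labels used here name no strain, age or Cre driver. Siglec-G is an inhibitory receptor that binds sialic acid, and by the genotype label it was deleted in B cells, while T cells were sequenced. RNA was counted with the 10x 3′ assay, in which each molecule carries a unique molecular identifier (UMI), and a level is given in CPM, the UMIs of a gene per 1000000 UMIs of the same cells.

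Type I interferons bind a receptor on nearly all cells and set off the assembly of a complex of transcription factors, IRF9 among them, that binds a DNA element known as ISRE. The genes switched on in this way code for antiviral proteins such as the IFIT RNA binders, the ubiquitin-like modifier ISG15, the OAS enzymes and the guanylate-binding proteins. Interferon gamma has a receptor of its own and shares many of these targets. A small cluster led by such genes is a common find among T cells in single-cell data. Tfh cells help B cells in the germinal centre, and Tfr cells, which express Foxp3, restrain that response.

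The wild-type samples hold the same cells. Of 5143 barcodes of WT run 1 in the tables, 5068 were also in those of WT run 2, which makes them runs of a single library. BKO and WT are thus represented once each, nothing between them could be tested, and batch 1 alone is the comparison of BKO with WT run 1. A cluster set against its own class is a description too, since the clusters were built on the same values. Ratios carry 0.5 CPM on both sides. The 95% intervals are exact and reflect counting error alone. Those on UMIs take each UMI as independent, so they are too narrow where few cells hold most of the UMIs. In pooled cells, fewer producing cells and less RNA per cell cannot be told apart unless values per cell are given. The matrices held 32518538 to 85225125 UMIs per sample, those of BKO with unfiltered barcodes.

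Tfh subcluster 7 held 134 of 6389 BKO cells (2.10%, Clopper-Pearson interval 1.76 to 2.48%), 56 of 3727 cells in WT run 1 (1.5%, 1.14 to 1.95%) and 57 of 3668 in WT run 2 (1.55%, 1.18 to 2.01%). Tfr subcluster 5 held 32 of 2044 BKO cells (1.57%, 1.07 to 2.20%), 11 of 1416 in WT run 1 (0.777%, 0.388 to 1.39%) and 12 of 1449 in WT run 2 (0.828%, 0.429 to 1.44%). No difference is read from these shares, because a gene that leads both clusters, Cxcl10, differed between the genotypes. The runs sorted wild-type cells in nearly the same way: of 71 barcodes that were members in either run, 60 fell in the same subcluster in both (51 Tfh and 9 Tfr), 5 were members in both but once as Tfh and once as Tfr, and 6 were members in 1 run only. None of the BKO members shared a barcode with a wild-type cell of the tables (0 of 166).

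Depth per cell was close to that of the other cells. Their median UMIs per cell were 6559, 4651 and 7580 in Tfh of BKO, WT run 1 and WT run 2, against 6237, 4411 and 7292 in the other Tfh cells, and 6570, 5408 and 8566.5 against 7068, 5144 and 8404 in Tfr. The median share of mitochondrial UMIs lay between 2.94 and 4% in members and between 3.52 and 4.22% in the other cells. Summed over the cells, the Tfh members held 972538, 281847 and 480397 UMIs, while the Tfr members held only 227975, 64550 and 102097, so that 3 UMIs, the most that a count of 0 allows, equal 13.2, 46.5 and 29.4 CPM in Tfr members. Levels of rare transcripts in wild-type Tfr members therefore rest on a handful of molecules.

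The 4 genes fixed as marks of interferon-stimulated cells stood high in both clusters in every sample. This describes the clusters and is no test of their label, since they were built on the same values. Ifit1, which binds viral RNA that lacks the host cap (chromosome 19, 34640871 to 34650009, plus strand, in GENCODE vM21 on GRCm38, the assembly of mm10), stood at 739, 770 and 683 CPM in Tfh members of BKO, WT run 1 and WT run 2, against 13.4, 13.9 and 14 CPM in the other Tfh cells. In Tfr members it stood at 1022, 806 and 911 CPM, against 19.3, 15.6 and 19.7 CPM. Isg15, the ubiquitin-like modifier, had 1277, 1114 and 978 CPM in Tfh members and 65.5, 59.7 and 58 CPM in the others, with its gene on the minus strand of chromosome 4 (156199424 to 156200818). The level of both genes in members lay at least 11.8-fold above that of the other cells in every sample of both classes. Ifit3, a partner of Ifit1, had 340, 298 and 285 CPM in Tfh members and 2.43, 2.93 and 3.09 CPM in the others.

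The start of each of these 4 genes carries the core of the ISRE. Below are the 250 bases before the start of transcription, 5′ to 3′ on the strand of the gene, from RefSeq on GRCm38.p6, shown because the cluster is defined by genes of this kind. Capitals mark GAAANNGAAA read on either strand, in which N is any base and overlapping copies are joined.
Ifit1 (chr19:34640639-34640888, plus strand): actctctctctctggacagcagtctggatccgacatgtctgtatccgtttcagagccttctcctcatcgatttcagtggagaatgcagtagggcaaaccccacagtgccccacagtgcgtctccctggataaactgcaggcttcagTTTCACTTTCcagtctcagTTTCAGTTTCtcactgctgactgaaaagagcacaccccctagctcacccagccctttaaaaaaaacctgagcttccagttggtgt
Ifit3 (chr19:34583279-34583528, plus strand): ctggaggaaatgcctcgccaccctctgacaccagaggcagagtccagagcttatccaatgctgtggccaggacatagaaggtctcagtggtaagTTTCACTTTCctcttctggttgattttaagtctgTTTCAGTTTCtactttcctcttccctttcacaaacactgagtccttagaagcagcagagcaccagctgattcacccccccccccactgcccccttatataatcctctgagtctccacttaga
Isg15 (chr4:156200819-156201068, minus strand): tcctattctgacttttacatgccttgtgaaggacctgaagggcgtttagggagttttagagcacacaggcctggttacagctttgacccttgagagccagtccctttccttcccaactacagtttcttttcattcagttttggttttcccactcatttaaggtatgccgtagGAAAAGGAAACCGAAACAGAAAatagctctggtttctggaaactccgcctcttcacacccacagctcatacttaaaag
Cxcl10 (chr5:92348890-92349139, minus strand): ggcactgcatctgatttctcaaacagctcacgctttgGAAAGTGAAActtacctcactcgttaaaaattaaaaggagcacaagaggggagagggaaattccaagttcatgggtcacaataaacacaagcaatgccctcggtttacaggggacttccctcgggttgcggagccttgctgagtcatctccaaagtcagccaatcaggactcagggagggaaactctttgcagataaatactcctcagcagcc

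The Ifit1 and Ifit3 starts each hold 2 copies, both on the opposite strand and beginning 104 and 85 bases before the start in Ifit1. Isg15 holds 3 overlapping copies beginning 78, 72 and 66 bases before the start, and Cxcl10 holds 1 that begins 213 bases before it. The same core lay in 3.44% of all 32851 promoter windows of 300 bases (250 before to 50 after the start), in 5.61% of the 2763 genes with a window among those measured in Tfh members, and in 44 of the 108 such genes that were at least 2-fold higher in Tfh members (40.7%). In Tfr it lay in 43 of 98 (43.9%), and among genes higher in both clusters in 39 of 81 (48.1%). Windows of 30 bases from other leading genes show how the copies vary in their 2 free bases, in Rsad2 (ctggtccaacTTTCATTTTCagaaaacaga), in Oas3 (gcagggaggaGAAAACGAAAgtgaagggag) and in Bst2 (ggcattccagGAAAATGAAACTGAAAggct). Ifi44, Oasl2, Cmpk2 and Parp12, also leading genes of the Tfh members, have no such core in this window. A motif of interferon gamma targets, TTCNNNGAA on either strand, lay in 8.30% of all windows and in 18 of the 108 (16.7%), and in none of the 4 marker genes. A match is only a run of letters and says nothing about what binds there.

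Among the 3452 genes that averaged 50 CPM or more in Tfh members, 127 (3.68%) were at least 2-fold higher in members than in other Tfh cells in every sample. In Tfr the same rule took 120 of 3457 (3.47%). The genes were largely shared, 96 of them standing in both lists, which is 75.6% of the Tfh list and 80% of the Tfr list. Of the 127, 94 belong to the gene lists drawn up for this comparison, as do 81 of the 120. The 11 interferon lists, with 165 genes, hold 92 and 80 of them. The lists were drawn up with earlier results of these data known, and their share among all genes measured is not given here. Over all genes measured the median log2 ratio of members to other cells lay between -0.06 and -0.03 in Tfh and between -0.06 and 0.07 in Tfr.

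**Figure D1:**
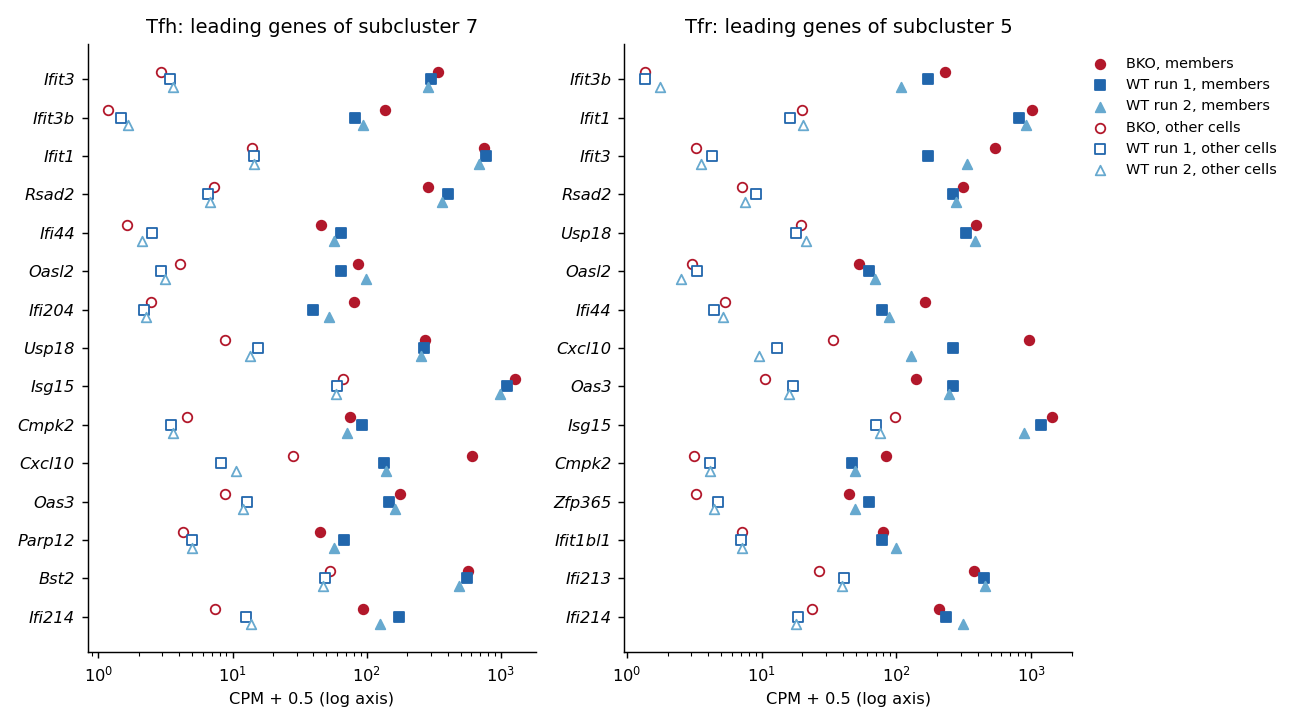
Level in CPM plus 0.5, on a log axis, of the 15 genes with the highest smallest ratio of members to other cells in Tfh (left) and Tfr (right). Filled symbols are members and open symbols are the other cells of the class, in BKO (circles), WT run 1 (squares) and WT run 2 (triangles). Every filled symbol lies right of the open ones of its gene, and for Cxcl10 the BKO members stand at 611 (Tfh) and 961 CPM (Tfr), right of both WT runs.

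The IFIT genes led. All 5 IFIT genes past the minimum were higher in both clusters, and their sum, with the sixth, was 1423, 1348 and 1261 CPM in Tfh members of BKO, WT run 1 and WT run 2, against 44.1, 52.4 and 53.7 CPM in the other Tfh cells. Ifit3b stood at 137, 81.6 and 93.7 CPM in Tfh members, against 0.679, 0.975 and 1.16 CPM. Ifit3 and Ifit3b are close copies whose 30-base windows around the ISRE core are identical, and reads that match both may have been dropped or split by the counting, so their split is uncertain. The 5 called genes Ifit2, Ifit3, Ifit1bl1, Ifit3b and Ifit1 lie side by side on chromosome 19 between 34550694 and 34650009. Of the genes higher in either cluster, 55 lie in 14 such runs of 3 or more with gaps of at most 500 kb. Among them are 8 Ifi200 genes on chromosome 1 (173468485 to 173942672), which code for DNA sensors and their relatives. The share of all measured genes that lie in such runs is not given here. The 55 therefore do not show that these genes lie closer together than other genes.

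Genes around ISG15 came next. Usp18, the protease that removes ISG15 and blunts the interferon receptor, stood at 271, 266 and 254 CPM in Tfh members, against 8.33, 14.8 and 13 CPM in the others, and at 390, 325 and 382 CPM against 18.9, 17.6 and 21 CPM in Tfr. Herc6, the mouse ligase for ISG15, stood at 303, 497 and 487 CPM in Tfh members, against 55, 77.4 and 77 CPM. In both genes members exceeded other cells in all 3 samples, and 3 of the 4 list members past the minimum were called in Tfh and 4 of 4 in Tfr. Of the OAS enzymes, which make the signal that activates RNase L, all 3 past the minimum were called in Tfh and 3 of 4 in Tfr. Oas3 stood at 175, 145 and 162 CPM in Tfh members, against 8.26, 12.4 and 11.6 CPM.

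Antiviral effectors were higher as well. Rsad2, which codes for viperin, stood at 285, 401 and 364 CPM in Tfh members, against 6.74, 6.07 and 6.29 CPM in the others, and at 311, 263 and 274 CPM, against 6.65, 8.49 and 7.07 CPM, in Tfr. Bst2, or tetherin, which holds budding virus on the cell surface, stood at 568, 557 and 489 CPM in Tfh members, against 52.7, 48.5 and 46.7 CPM. Of 16 restriction factors past the minimum, 12 were higher in Tfh and 12 in Tfr. Of the nucleic acid sensors 12 of 14 were higher in Tfh and 11 of 13 in Tfr, with Zbp1, a sensor of Z-form nucleic acid, at 334, 334 and 316 CPM in Tfh members and 59.1, 55.1 and 56.4 CPM in the others. Interferon-induced GTPases, which attack vacuoles that hold pathogens, were higher in 14 of 15 in Tfh and 11 of 15 in Tfr. Iigp1 stood at 485, 373 and 381 CPM in Tfh members, against 54.8, 37.3 and 37.4 CPM.

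Of the poly-ADP-ribose polymerases and Schlafen genes 8 of 9 were higher in Tfh and 9 of 10 in Tfr. Slfn5, a Schlafen gene, stood at 697, 749 and 708 CPM in Tfh members, against 77.7, 73.5 and 71.2 CPM. Genes of antigen presentation stood closer to the other cells. Among 16 genes of MHC class I and its loading, 3 (H2-T24, Tap1 and Tapbp) passed in Tfh and H2-T24 alone in Tfr, and B2m, the light chain of MHC class I, stood at 2574, 1902 and 2096 CPM in Tfh members, against 1818, 1527 and 1641 CPM. Among the remaining interferon-stimulated genes listed, 28 of 34 were higher in Tfh and 21 of 36 in Tfr. Ifi27l2a, a small membrane protein, had 5849, 4939 and 4967 CPM in Tfh members, against 1806, 1683 and 1690 CPM in the others. Summed over all 165 genes of the 11 interferon lists, these transcripts took 5.31, 5.23 and 5.09% of the UMIs of Tfh members, against 2.12, 2.02 and 2.02% in the others, and 6.14, 5.66 and 5.84% against 2.47, 2.17 and 2.18% in Tfr.

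**Figure D2:**
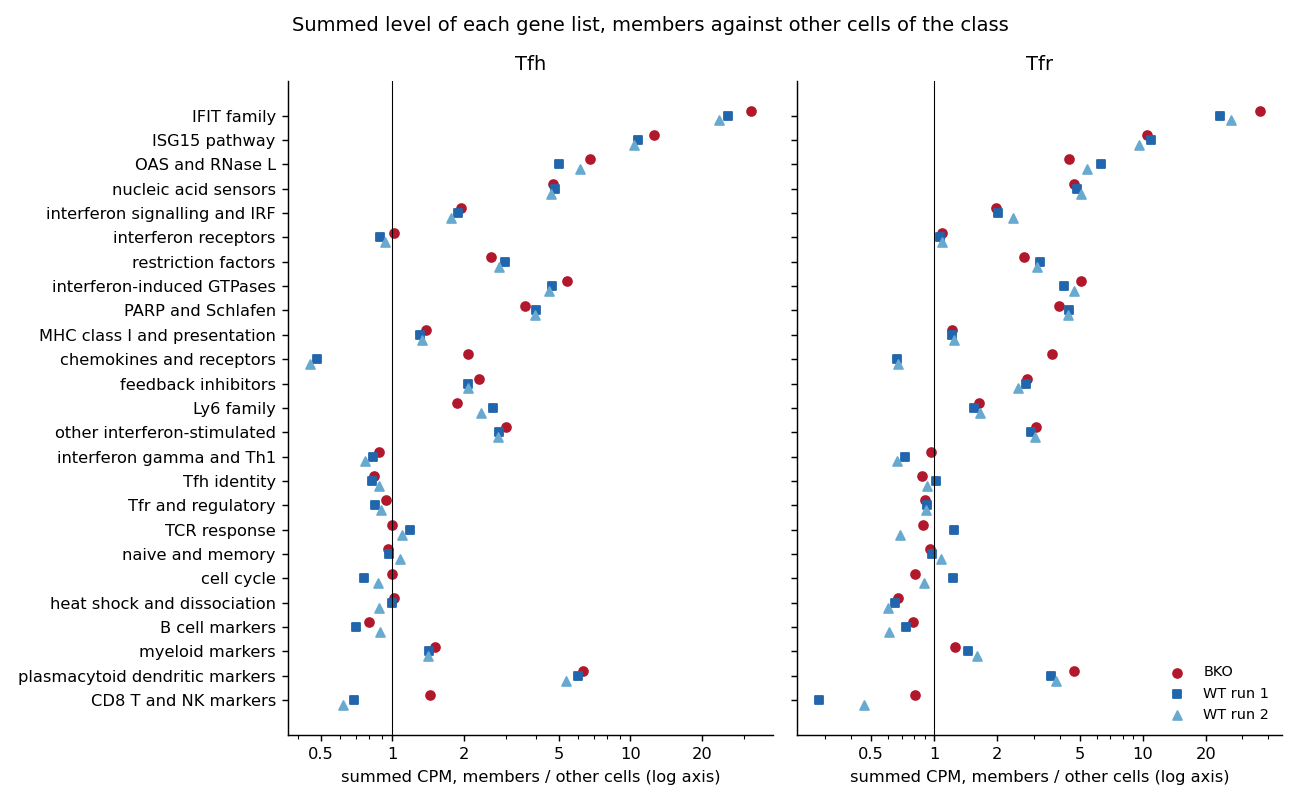
Ratio of the summed CPM of each gene list in members to that in the other cells of the class, on a log axis, for Tfh (left) and Tfr (right), with BKO as circles, WT run 1 as squares and WT run 2 as triangles. The IFIT list lies furthest right in both classes, interferon receptors and Tfh identity genes lie near 1, and the chemokine list lies above 1 in BKO and below 1 in both WT runs.

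In Tfr members the leading genes rest on fewer molecules. Isg15 had 1430, 1177 and 891 CPM in Tfr members of BKO, WT run 1 and WT run 2, against 97.5, 70.2 and 75.1 CPM in the other Tfr cells, and Ifit3 had 540, 170 and 333 CPM, against 2.72, 3.76 and 3.05 CPM. Bst2 had 535, 449 and 460 CPM, against 79.9, 61.5 and 58.5 CPM. In each of these genes the lowest Tfr member level lay above the highest level of the other Tfr cells. Of the 15 leading genes of each class 12 were shared. Zfp365, a zinc finger protein, was among the leading genes of Tfr, with 10, 4 and 5 UMIs in members, that is 43.9, 62 and 49 CPM, against 2.72, 4.24 and 3.94 CPM.

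The signalling chain was split. Of the 7 genes of interferon signalling past the minimum, 4 were called higher in each class and 3 were not. Irf7, one of those called, which amplifies interferon production, stood at 240, 192 and 173 CPM in Tfh members, against 25.1, 21.2 and 19.8 CPM in the others. The receptor genes were not called (0 of 2 past the minimum in either class), with Ifnar2, a chain of the type I receptor, at 139, 121 and 131 CPM in Tfh members and 133, 149 and 144 CPM in the others. Of the 21 interferon genes listed, 20 had 0 UMIs in members of both classes in all 3 samples. By the limit of 3 UMIs this allows up to 3.08, 10.6 and 6.24 CPM for each in Tfh members. The other, Ifng, which codes for interferon gamma, gave 13, 10 and 13 UMIs in Tfh members, which is 13.4, 35.5 and 27.1 CPM, against 24, 23.5 and 23.2 CPM in the others.

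Of the 6 feedback inhibitors past the minimum, 3 were called higher in Tfh members (Socs1, Usp18 and Isg20) and 2 in Tfr members (Usp18 and Isg20). Socs1, which blocks the kinases of the interferon receptor, stood at 106, 138 and 133 CPM in Tfh members, against 39.7, 30 and 30.7 CPM in the others. Outside that list, Cd274, which codes for the checkpoint ligand PD-L1, stood at 143, 142 and 158 CPM in Tfh members, against 55.1, 61.2 and 59.8 CPM. Cd69, a surface protein that keeps lymphocytes in tissue, stood at 103, 160 and 137 CPM, against 59.8, 51.6 and 50.6 CPM. Socs1 and Cd274 passed the 2-fold rule in Tfh, while Cd69 missed it in BKO at 1.71-fold. In Tfr members Cd86, a ligand of CD28 and CTLA-4, stood at 132, 62 and 118 CPM, against 12.8, 15.2 and 16.7 CPM, on 30, 4 and 12 UMIs.

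Within the members the strength of the programme varied. Each cell was thinned to 2500 UMIs, leaving out 66, 194 and 56 shallower Tfh cells and 9, 36 and 2 Tfr cells of BKO, WT run 1 and WT run 2, and the UMIs of 19 IFIT, ISG15-pathway and OAS genes were summed per cell. The median was 8, 8 and 8 UMIs in Tfh members and 10, 9 and 10 in Tfr members, against 0, 0 and 0 in the other Tfh cells and 1, 1 and 1 in the other Tfr cells. The cells ranged from 0 to 54 among BKO Tfr members and from 0 to 38 among BKO Tfh members, and 10 of 133 BKO Tfh members had fewer than 2. Other cells of the class reached 12 to 14, so the ranges overlap at the level of single cells.

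**Figure D3:**
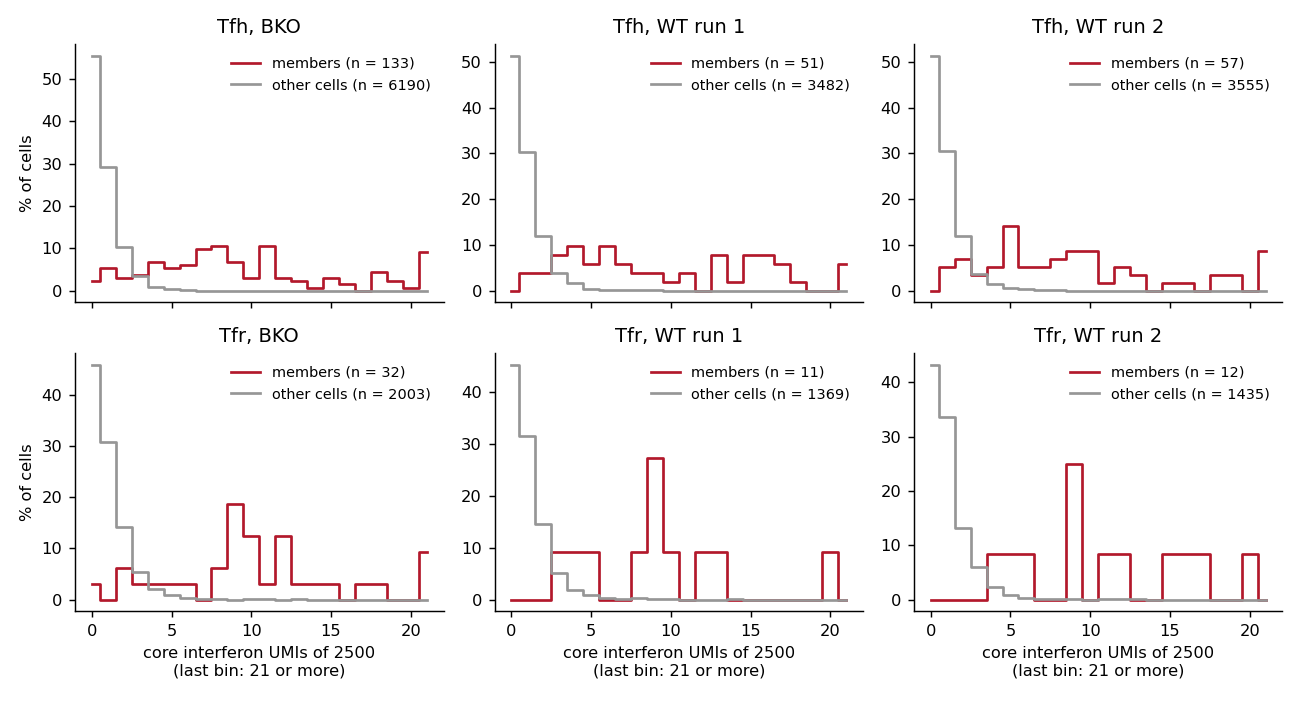
Share of cells, in percent, by the number of UMIs from 19 IFIT, ISG15-pathway and OAS genes after each cell was thinned to 2500 UMIs, with the last bin holding 21 or more, for members (red) and the other cells of the class (grey) in Tfh (upper row) and Tfr (lower row). Members spread widely with medians from 8 to 10, while the other cells pile up at 0 and 1. The few WT Tfr members lie between 3 and 20 UMIs.

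The same sum, in which Cxcl10 has no part, gives a count of cells that does not use the authors' clusters. Cells with 5 or more such UMIs were 150 of 6323 BKO Tfh cells (2.37%, interval 2.01 to 2.78%), 67 of 3533 in WT run 1 (1.90%, 1.47 to 2.40%) and 83 of 3612 in WT run 2 (2.30%, 1.83 to 2.84%). In Tfr they were 59 of 2035 (2.90%, 2.21 to 3.72%), 34 of 1380 (2.46%, 1.71 to 3.43%) and 34 of 1447 (2.35%, 1.63 to 3.27%). The intervals of BKO and of both WT runs overlapped in each class. Cells near that limit, with 4 or 5 UMIs, numbered 101, 77 and 84 in Tfh and 62, 40 and 48 in Tfr, so the count depends on where the limit is set. The authors' members made up 70%, 56.7% and 54.2% of the cells with 5 or more UMIs in Tfh and 45.8%, 26.5% and 32.4% in Tfr.

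Genes of T cell identity were detected in the members of both classes. In Tfr members Foxp3, the factor that defines regulatory cells, stood at 268, 325 and 362 CPM, against 350, 356 and 331 CPM in the other Tfr cells. Every Tfr cell of the tables had a Foxp3 UMI, as did 1 of 134, 0 of 56 and 6 of 57 Tfh members. Since all Tfr cells had one, members or not, its detection in Tfr members follows from their class. Of the 16 genes of Tfh identity past the minimum, 0 were called higher in Tfh members and 1, Sostdc1, was called lower. Their median log2 ratio of members to other cells was -0.31 in BKO, -0.14 in WT run 1 and -0.17 in WT run 2, beside -0.06, -0.03 and -0.03 over all genes. Cxcr5, the receptor that leads cells into the follicle, stood at 159, 124 and 137 CPM, against 233, 199 and 198 CPM. Bcl6, the master regulator of Tfh cells, stood at 123, 103 and 123 CPM, against 184, 168 and 178 CPM, and Pdcd1, which codes for PD-1, at 212, 153 and 177 CPM, against 305, 237 and 239 CPM. The values of all 3 lay below those of the other cells in every sample, and none passed the 2-fold rule. They also lay within the range of the other Tfh subclusters of at least 20 cells in every sample. In BKO that range was 116 to 347 CPM for Cxcr5, 41.1 to 255 CPM for Bcl6 and 102 to 390 CPM for Pdcd1. Levels this low were thus not particular to the members.

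Cytokines of T cell help were next. Il21, the main cytokine of Tfh cells, gave 57, 6 and 18 UMIs in Tfh members, which is 58.6, 21.3 and 37.5 CPM, against 72, 44.1 and 49.1 CPM in the other Tfh cells. In Tfr members both Il21 and Il4 were at 0 UMIs in all 3 samples, while the other Tfr cells had 11.4, 11.4 and 9.15 CPM of Il21 and 21.5, 29.4 and 29.2 CPM of Il4. At this depth the limit of 3 UMIs is 13.2, 46.5 and 29.4 CPM, so only for Il4 in BKO does it lie below the level of the other cells. Cd40lg, the ligand through which T cells signal to B cells, stood at 188, 160 and 167 CPM in Tfh members, against 228, 185 and 196 CPM, and gave only 4, 1 and 1 UMIs in Tfr members.

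Few genes were lower in members. By the converse rule, at most 0.5 times the other cells in every sample, 7 of 3589 genes (0.195%) were lower in Tfh members and 22 of 3576 (0.615%) in Tfr members, with 0 in common. Sostdc1, a secreted antagonist of BMP and WNT signals made by a Tfh subset, stood at 73, 49.7 and 41.6 CPM in Tfh members, against 288, 239 and 220 CPM in the others. Of the 7 other Tfh subclusters of at least 20 cells in BKO, 5 lay between 53.5 and 74.6 CPM, and subclusters 3 and 8 were higher, at 1070 and 204 CPM. The low Sostdc1 level of the members was thus shared with 5 of these 7. In Tfr the 22 include Penk, which codes for enkephalin, at 2, 0 and 2 UMIs in members, against 75.9, 135 and 128 CPM in the other Tfr cells. Penk was not compared between subclusters, so its low level is not shown to be particular to the members. Cd40lg is another of the 22.

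Markers of other cells were summed as well, and their part in the results was not tested. Of the B cell markers Cd79a, Ms4a1 and Ebf1 were at 0 UMIs in members of both classes, and the sum of the 13 B cell genes was 410, 326 and 416 CPM in Tfh members, against 513, 464 and 470 CPM in the others, and 961, 589 and 509 CPM against 1217, 805 and 833 CPM in Tfr. The 7 genes listed for plasmacytoid dendritic cells, the main makers of type I interferon, summed to 639, 600 and 527 CPM in Tfh members, against 101, 99.4 and 98.1 CPM, and to 640, 480 and 500 CPM against 136, 133 and 130 CPM in Tfr. Bst2 alone made up 568, 557 and 489 CPM of the Tfh sum, and Siglech, which defines these cells, was at 0 UMIs in members of both classes. The 12 myeloid genes summed to 406, 330 and 314 CPM in Tfh members, against 269, 231 and 224 CPM. In Tfr they summed to 447, 387 and 431 CPM, against 357, 267 and 268 CPM. The myeloid sum thus stood above that of the other cells in every sample of both classes. Itgax, Fcer1g, Tyrobp and C1qa were at 0 UMIs in both, so other genes of the list carry this excess. Of the myeloid genes 2 passed the minimum in each class and 0 were called higher. Trac, the constant chain of the T cell receptor, stood at 991, 777 and 806 CPM, against 1101, 810 and 894 CPM. The 14 genes of heat shock and dissociation summed to 2814, 2594 and 2159 CPM in Tfh members, against 2786, 2617 and 2468 CPM, and to 1855, 1751 and 1518 CPM against 2751, 2695 and 2527 CPM in Tfr. Of these genes 0 were called lower in Tfh and 1, Hspd1, a mitochondrial chaperone, in Tfr. Cell cycle genes were called in neither class (0 of 5 and 0 of 3 past the minimum). No source used here states a treatment of doublets, and none was added.

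Between the genotypes the lists that lead the Tfh members had medians from near that of all genes to somewhat above it. In Tfh members the median log2 ratio of BKO to the mean of the WT runs was 0.22 for the IFIT list, 0.10 for the ISG15 list, 0.08 for the OAS list and -0.09 for the sensors, beside -0.09 over all 3452 genes measured. In the other Tfh cells the same 4 lists had -0.26, -0.33, -0.07 and -0.19, beside -0.10 over those 3452 genes. The 15 GTPases had 0.35 in members, beside -0.10 for the same genes in the other Tfh cells. In members 5 of them passed the 1.5-fold rule as higher in BKO and 1 as lower, beside 2.09% and 7.5% of all genes. Gbp2, a guanylate-binding protein, stood at 123, 74.5 and 66.6 CPM, but it missed the rule without the top cell of each sample, where it stood just under 1.5-fold against WT run 1. In Tfr members the medians were 0.71 for IFIT, -0.11 for ISG15, -0.85 for OAS and 0.76 for the GTPases, beside -0.15 over all genes. Of the 15 GTPases in Tfr members 7 were called higher in BKO and 1 lower, beside 7.17% and 17.6% of all genes. Iigp1, one of the 7, stood at 1000, 465 and 529 CPM in Tfr members and at 107, 56.9 and 65.2 CPM in the other Tfr cells.

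Cxcl10 ranked first among the genes higher in BKO Tfh members. This chemokine, which draws cells that carry the receptor CXCR3 and whose gene lies on the minus strand of chromosome 5 (92346638 to 92348889), had 611, 135 and 137 CPM in Tfh members of BKO, WT run 1 and WT run 2, on 594, 38 and 66 UMIs. In Tfr members it stood at 961, 263 and 127 CPM on 219, 17 and 13 UMIs. The ratio of BKO to WT run 1 and run 2 was 4.52 and 4.43 in Tfh members and 3.64 and 7.52 in Tfr members. The ratio to WT run 2 has a counting interval from 3.44 to 5.82 in Tfh and from 4.32 to 14.4 in Tfr. These intervals leave out the spread between cells. In Tfr 1 member held 76 of the 219 UMIs in BKO and 1 member 11 of the 13 in WT run 2. The other Tfh cells had 27.8, 7.64 and 10.1 CPM and the other Tfr cells 33.3, 12.4 and 9 CPM, so that BKO stood higher there too, 3.03-fold in Tfh and 3.02-fold in Tfr over the mean of the runs. In BKO droplets with 1 to 50 UMIs, which hold free RNA, Cxcl10 had 46.2 CPM, a level above that of the other cells and below that of the members.

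The same gene can be followed cell by cell. After thinning, 42 of 133 BKO Tfh members had a Cxcl10 UMI (31.6%, interval 23.8 to 40.2%), against 11 of 51 in WT run 1 (21.6%, 11.3 to 35.3%) and 10 of 57 in WT run 2 (17.5%, 8.75 to 29.9%), and these intervals overlap. Without thinning the counts were 58 of 134, 14 of 56 and 14 of 57. In the other Tfh cells 2.78, 0.976 and 1.04% had one after thinning. In Tfr members it was 18 of 32 (56.2%, 37.7 to 73.6%), against 2 of 11 and 1 of 12. More than 10 Cxcl10 UMIs were found in 18 BKO Tfh members, against 0 and 2 in the WT runs. The cell with the most held 53 of the 594 UMIs, and without the top cell of each sample the levels were 561, 109 and 115 CPM. In Tfr the top cell held 76 of 219, and the levels without it were 647, 95.1 and 21.2 CPM. The members were 2.10% of BKO Tfh cells and held 33.3% of their Cxcl10 UMIs (31.1 to 35.5%), against 21.2% and 18.2% in the WT runs.

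**Figure D4:**
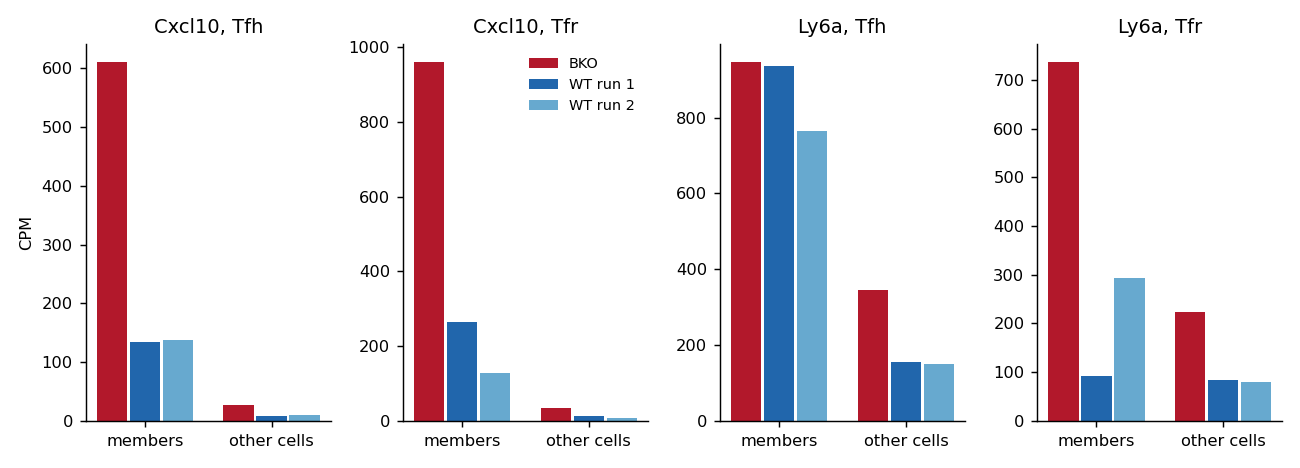
Level in CPM of Cxcl10 and Ly6a in members and in the other cells of the class, for Tfh and Tfr, in BKO (red), WT run 1 (dark blue) and WT run 2 (light blue). Bars start at 0 and each stands for 1 summed sample with no error bar. Cxcl10 is higher in BKO in all 4 groups of cells, while Ly6a in Tfh stands at 346 CPM in BKO against 155 and 149 CPM in the other cells, with members close together.

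Ly6a, which codes for the surface protein Sca-1 and is induced by interferon, took another course. It stood at 947, 937 and 764 CPM in Tfh members but at 346, 155 and 149 CPM in the other Tfh cells. The ratio of BKO to the mean of the WT runs was 1.11 in members and 2.27 in the other cells, and the members exceeded the others 2.73-fold in BKO, 6.01-fold in WT run 1 and 5.11-fold in WT run 2. In Tfr members Ly6a stood at 737, 93 and 294 CPM on 168, 6 and 30 UMIs, of which 1 cell held 5 of the 6 and 1 cell 20 of the 30 in the WT runs. Its wild-type level in Tfr members therefore rests mostly on 1 cell in each run.

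Over all genes, 72 of 3452 (2.09%) passed the rule as higher in BKO Tfh members, at least 1.5-fold against both runs, and 259 (7.5%) as lower. In the other Tfh cells 14 and 79 of 3589 passed, and 8 of the 72 and 32 of the 259 passed in both. With TMM scaling the split within Tfh members was 145 higher and 157 lower, and the median of all genes moved by more than 0.1, to 0.04 in place of -0.09. The ratios moved with intron length. Their median on the log2 scale was -0.35 in Tfh members and -0.34 in the other Tfh cells for genes whose introns exceed 100 kb, and 0.18 and 0.19 for those under 3 kb. Per the file headers BKO and WT were counted with different versions of Cell Ranger. With this trend taken off, 193 genes passed in Tfh members in place of 331, 142 of them shared. In Tfr members 248 of 3457 (7.17%) were higher and 609 (17.6%) lower, and TMM gave 433 and 367 with a median of 0.08 in place of -0.15. Of these the counting interval of the ratio to WT run 2 excluded 1 for 79 and 233, so most of the Tfr calls cannot be told from counting error.

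**Figure D5:**
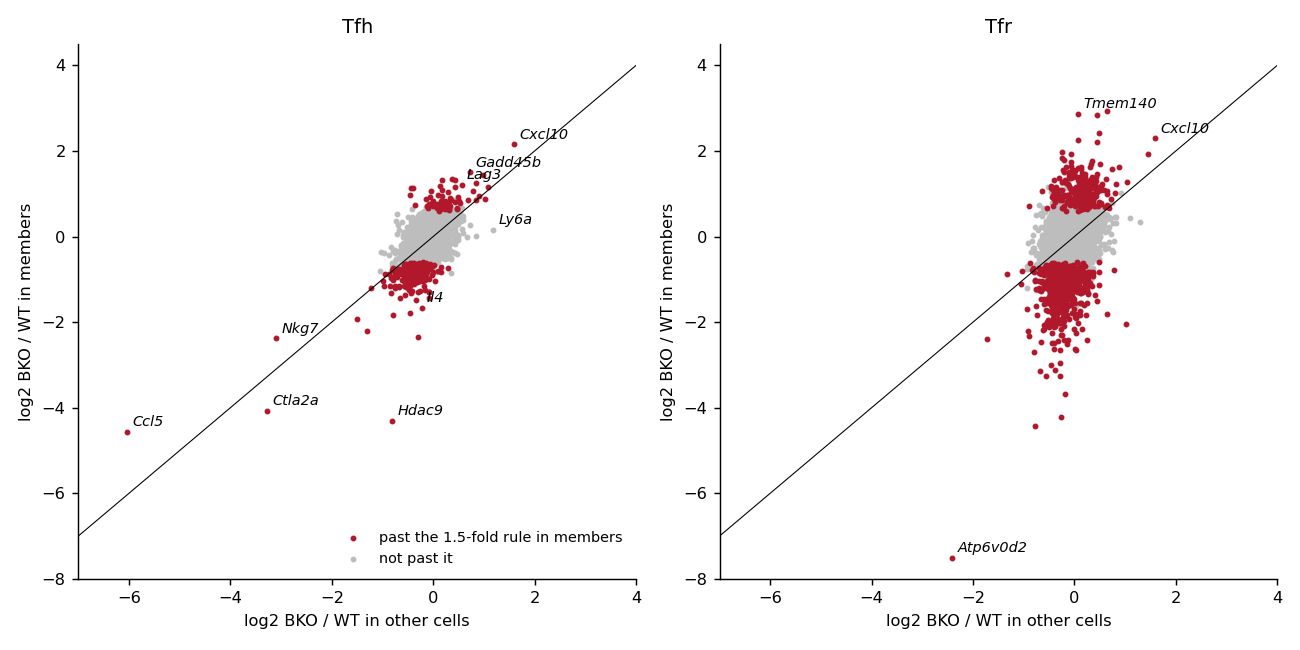
Log2 ratio of BKO to the mean of the WT runs in the other cells of the class (horizontal) and in members (vertical) for genes of at least 50 CPM in members, with those past the 1.5-fold rule against both runs in red and the rest in grey, for Tfh (left) and Tfr (right). The line marks equal ratios. Cxcl10 lies above it at the upper right in both classes, Ly6a lies to the right of the grey cloud in Tfh, and the red points spread further in Tfr, where UMIs are few. Atp6v0d2 has 0 UMIs in BKO Tfr members and is placed by the 0.5 CPM added.

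After Cxcl10, the 4 genes that exceeded both WT runs by the widest margin in Tfh members were Gadd45b, Ppp1r10, Lag3 and Ppa1. Gadd45b, a stress sensor induced by NF-kB, stood at 102, 35.5 and 35.4 CPM in members, against 84.2, 51.2 and 49.7 CPM in the other Tfh cells. Lag3, an inhibitory receptor for MHC class II, stood at 108, 42.6 and 50 CPM, against 96.8, 64.2 and 66.9 CPM. Ppp1r10, a nuclear regulator of protein phosphatase 1, stood at 86.4, 35.5 and 33.3 CPM, against 71.7, 62.9 and 63.8 CPM. In these 3 genes the wild-type members stood below the other wild-type cells and the BKO members above the other BKO cells. Ppa1, a pyrophosphatase, stood at 88.4, 35.5 and 41.6 CPM, against 29.8, 27.6 and 26.4 CPM.

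On the lower side single cells weighed heavily. Ccl5, a chemokine of effector T cells, stood at 38, 986 and 831 CPM in Tfh members, against 32.5, 2226 and 2143 CPM in the other Tfh cells, but a single member held 253 of the 278 UMIs in WT run 1 and a single one 359 of the 399 in WT run 2. Without the top cell of each sample Ccl5 stood at 10.4, 89.4 and 83.9 CPM in members. Hdac9, a histone deacetylase, stood at 6.17, 121 and 142 CPM, and at 3.13, 43.3 and 59.3 CPM without the top cells. Il4, which drives class switching, stood at 39.1, 124 and 125 CPM in Tfh members, against 80, 90.1 and 97.5 CPM in the others, and at 34.1, 55.4 and 67 CPM without the top cells. All 3 still stood at least 1.5-fold lower in BKO than in both WT runs without those cells, though Hdac9 then averaged under the minimum of 50 CPM. Ctla2a, an inhibitor of cathepsins, stood at 4.11, 81.6 and 72.9 CPM and Nkg7, a protein of cytotoxic granules, at 28.8, 163 and 139 CPM, on at most 12 cells with a UMI in any sample. The 8 markers of CD8 T and NK cells, of which Nkg7 is one, summed to 74, 199 and 167 CPM in Tfh members, against 51.5, 288 and 268 CPM in the other Tfh cells, with Cd8a, Klrd1, Ncr1 and Prf1 at 0 UMIs in members. Their part in these values was not tested.

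In Tfr members the genes ahead of Cxcl10 on the higher side were Tmem140 (30, 1 and 2 UMIs), Asb2 (34, 2 and 1) and Anxa2 (32, 2 and 3). On the lower side Atp6v0d2, a subunit of the proton pump, gave 0, 6 and 9 UMIs, followed by Mtss1 with 1, 6 and 12. The wild-type values of the 3 genes higher in BKO rest on at most 3 UMIs each. Siglecg itself gave 0 UMIs in all members, and since the deletion is in B cells this checks nothing about the labels.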

How the data were processed

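Counts of UMIs per gene and barcode were deposited by the authors for each sample, with tables of Tfh and Tfr cells that give class, subcluster (resolution 0.3) and the percent of mitochondrial UMIs. Cell Ranger and mm10 are named in the submitters' processing notes. Per the file headers the software was cellranger 7.0.1 for WT (called cells only) and Cell Ranger 4 for BKO (1275404 unfiltered barcodes), and neither source tells whether introns were counted. Cells were matched by their 16-base barcode, and raw counts were summed per sample, class and membership and scaled to CPM.

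With 1 library per genotype there is no fitted model and no p-value. A gene was called higher in members when its mean over the samples reached 50 CPM and it stood at least 2-fold in every sample after adding 0.5 CPM, and different by genotype when BKO was at least 1.5 times beyond both WT runs. The rule for lower genes, the sum of core genes and the values without top cells were chosen after seeing the data. Genes named are the markers, 15 leading genes per class, the 4 of highest CPM per list, 5 per direction by genotype, and Foxp3, Cxcr5, Pdcd1, Bcl6, Il21, Il4, Cd40lg, Ifng and Siglecg. Some are left out, and Ly6a, Cd69, Cd86, Sostdc1, Penk, Isg20 and Hspd1 were named after their values were seen. The cells and the 27 gene lists were chosen with earlier results of these data known. TMM factors came from edgeR 4.0.16, intervals from scipy 1.17.1, and the counting of calls was tested on simulated data. Gene positions came from GENCODE vM21 and promoters from RefSeq. A few genes are not reported here.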

Additional observations from a re-analysis of the deposited data

Results flagged for a closer look

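Of the genes named by genotype and 7 others (Il4, Foxp3, Cxcr5, Pdcd1, Bcl6, Cd40lg and Ly6a), 9 differed between the members and the other cells of their class in opposite directions in BKO and in both WT runs. Genes outside that choice were not counted, so the share over all genes is not given. All of the 9 except Il4 were named for their extreme ratio of BKO to WT in the same members. That choice by itself favours opposite directions, so the 9 are no separate result. The difference in direction was not tested, and the WT runs are 1 library. In Tfh the log2 ratio of members to other cells was 0.27 in BKO, against -0.52 and -0.48 in WT run 1 and run 2, for Gadd45b, 0.27 against -0.82 and -0.93 for Ppp1r10, and 0.16 against -0.59 and -0.42 for Lag3. It was 0.22 against -1.17 and -1.37 for Ccl5 and 0.064 against -0.61 and -0.73 for Nkg7, both of which lie mostly in cells outside the members in WT. It was -2.63 against 0.69 and 1.05 for Hdac9, -1.68 against 0.29 and 0.45 for Mctp1, and -1.03 against 0.46 and 0.36 for Il4. A single member held 22 of 34 and 40 of 68 Hdac9 UMIs in the WT runs, and 20 of 35 and 29 of 60 Il4 UMIs. Without the top cell of each run WT members stood below the other WT Tfh cells in both genes, as in BKO. In BKO a single member held 27 of 37 Ccl5 UMIs and a single one 11 of 28 Nkg7 UMIs. Without these, BKO members stood below the other BKO Tfh cells, as in WT. In Tfr the log2 ratio was -1.92 against 0.72 and 0.85 for Cntln, on 3, 8 and 14 UMIs.

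The authors' clustering at resolution 1, which the comparisons above do not use, placed nearly all members in its cluster 12 (129, 50 and 51 of the Tfh members and 31, 11 and 12 of the Tfr members in BKO, WT run 1 and WT run 2). That cluster also held 133 entries outside the members, 48, 17 and 10 in Tfh and 26, 14 and 18 in Tfr, with wild-type cells counted in each run. In these the 19 core genes summed to 1228 to 2054 CPM.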

How the results depend on the processing

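The counts of genes higher in members kept within 1.5 times of their value under every alternative run (TMM, 5 CPM added, minimum of 20 or 100 CPM, thinning, 1 WT run left out, and other cells without cluster 12), at 96 to 153 in Tfh and 99 to 152 in Tfr, and 111 of the 127 Tfh genes were called again after thinning. The counts by genotype moved. In Tfh members 331 genes passed in all, 128 with a minimum of 100 CPM, 841 with 20 CPM, 193 with the intron trend taken off, 135 as a ratio of ratios over the other cells, and 499 to 587 when 1 WT run was left out. In Tfr members 857 passed, 344 with 100 CPM, 1864 with 20 CPM and 1306 to 1447 with 1 run. The WT share of cells with 5 or more core UMIs was 2.10% in Tfh, in place of 1.53%, and 2.41% in Tfr, in place of 0.802%. As ratios over the other cells, Ccl5 and Nkg7 turned round, to log2 1.49 and 0.73, by construction since the other WT cells hold most of both. Of 446 further values, 384 kept direction and size. Part of these could not move, because the minimum in CPM does not enter the ratio of a single gene. A lower or higher minimum changes how many genes are tried, and 1 WT run makes the rule easier to pass. The cause of the other moves was not tested. No paired analysis was possible because 1 BKO library has a single counterpart and no test was made. Depth limits Tfr members most, where 1 UMI is 4.39, 15.5 and 9.79 CPM in BKO, WT run 1 and WT run 2.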

Other observations

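Genes outside the lists also stood higher in members. In Tfh members Hsh2d, an adaptor of lymphocyte signalling, exceeded the other Tfh cells at least 5.87-fold in every sample, Samd9l, a restriction factor, at least 3.94-fold, and Cybb, the catalytic subunit of the phagocyte oxidase, at least 3.38-fold. Dpp4, the ectopeptidase CD26, did so at least 2.36-fold in Tfh, and Cd47, the signal that holds off phagocytes, at least 2.02-fold in Tfr. These were chosen after their values were seen.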
